A study of Mus musculus with 8 samples.

Results

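The mitosis and G2/M genes are 35 genes whose products take a cell from the end of DNA replication through chromosome segregation and cytokinesis. They were chosen by symbol from the bulk RNA-seq counts of splenic B cells, and all 35 were found among the 24902 symbols of the matrix. All 35 had a value in every library and were among the 13173 genes tested.

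The study examined the part of PRMT5 in the progression of chronic lymphocytic leukemia (CLL), using mice that carry human transgenes in B cells. B cell RNA was sequenced from 4 mice with Eµ-PRMT5, 3 with Eµ-PRMT5/TCL1 (double transgenic) and 1 with Eµ-TCL1. The strain is given as C57BL/6N, while the study's methods name a C57BL/6 J background for the Eµ-TCL1 mice of the crosses. All were diseased and taken at ERC, the stage that called for their removal. Each library is a separate mouse, the ages of these mice are not given in the labels, and B cells were enriched from the spleen with a pan-B isolation kit. In Eµ-PRMT5 mice the transgene (Eµ-hPRMT5) joins a VH promoter and the IgH-Eµ enhancer to human PRMT5 and is expressed in B cells. Eµ-TCL1 mice carry human TCL1 (Eµ-hTCL1), and crosses gave the double transgenic mice (Eµ-hPRMT5/hTCL1). The study had 3 founders of Eµ-PRMT5 lines, and the title of Eµ-PRMT5 mouse 2 carries the name of 1 of these lines. It also carries the number that the study's methods give to a founder. The other titles hold codes of the same form, and the study uses the codes of Eµ-PRMT5 mice 3 and 4 as mouse numbers. Whether Eµ-PRMT5 mouse 2 is that founder or a descendant is therefore not known. The line of the other Eµ-PRMT5 mice was not identified here. No mouse without a transgene was analysed here, so each comparison is between transgenic mice.

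The libraries held 5484833, 6471716, 3987989 and 10252426 counts for Eµ-PRMT5 mice 1 to 4, 6232700, 7290268 and 6686631 for double transgenic mice 1 to 3 and 3356297 for the Eµ-TCL1 mouse. Levels are given as CPM, counts scaled to the size of each library with TMM factors, which adjust for differences in composition. The lowest count of a member in any library was 14, for Ube2c in Eµ-PRMT5 mouse 2.

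The B cell label was checked with 8 B cell markers, all of which had counts in every mouse. Their summed level stood at 6912, 4161, 6921 and 1917 CPM across Eµ-PRMT5 mice 1 to 4, at 3619.7, 5559 and 8770.4 in double transgenic mice 1 to 3 and at 5194 with TCL1 alone, with Cd79a, a signaling chain of the B cell receptor, the most abundant by mean over the 8 mice (highest in 3 of 8 mice). Eµ-PRMT5 mouse 4 stood apart, with the lowest B cell marker level of the 8 mice and the highest level of most mitosis genes. Results are therefore given with and without this library.

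Cells enter mitosis when cyclin B and its kinase Cdk1 become active, and leave it when the anaphase-promoting complex marks cyclins for destruction. Most genes of this program are repressed in resting cells by the DREAM complex and activated late in the cycle by B-Myb and FoxM1, through a promoter element named the cell cycle genes homology region (CHR). Many of their promoters also hold CCAAT boxes, which the factor NF-Y binds. Mki67 among them is a common marker of proliferating cells in lymphoid tumors.

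Because the members moved together among the mice, their promoters were searched for these elements. RefSeq windows of 300 bases (250 before and 50 after the start site, build GRCm38.p6) were matched by symbol for 28 of the 35 genes, in 31 windows. Aurkb, Ccna2, Cdc25c, Foxm1, Incenp, Kif20a and Tpx2 were not matched. TTTGAA, the letters of the CHR, stood on either strand in 23 of 31 windows (74.2%), against 17.9% of all 32851 windows in the table. By gene, 20 of 28 members held it. CCAAT, also on either strand, stood in 24 of 31 windows (77.4%), against 37.4% of all windows. The CHR variant TTTAAA stood in 9 windows (29%), against 13.2% of all windows. The CHR letters and CCAAT stood together in 20 windows (64.5%), against 6.95% of all windows, and in the members' windows no match of one motif overlapped a match of another. A match describes the letters only.

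The promoters printed here are those of the 3 genes with the largest and the 2 with the smallest ratio of Eµ-PRMT5 mouse 4 to the median of the other 7 mice, among genes with 1 window. This ratio was 12.8 for Cdk1 (chr10:69352863-69353162, minus strand), 11.3 for Cdc20 (chr4:118437294-118437593, minus strand) and 10.6 for Ccnb1 (chr13:100786437-100786736, minus strand). It was 1.58 for Cdc25b (chr2:131186698-131186997, plus strand) and 1.57 for Anln (chr9:22389157-22389456, minus strand). Sequences run 5′ to 3′ toward the gene, and capitals mark the CHR letters, the variant or the CCAAT box on either strand.
Cdk1: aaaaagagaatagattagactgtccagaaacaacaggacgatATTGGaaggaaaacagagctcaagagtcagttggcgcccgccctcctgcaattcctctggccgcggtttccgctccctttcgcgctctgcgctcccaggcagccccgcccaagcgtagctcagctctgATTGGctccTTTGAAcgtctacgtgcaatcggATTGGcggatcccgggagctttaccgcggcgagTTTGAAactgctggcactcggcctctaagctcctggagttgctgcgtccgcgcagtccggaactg
Cdc20: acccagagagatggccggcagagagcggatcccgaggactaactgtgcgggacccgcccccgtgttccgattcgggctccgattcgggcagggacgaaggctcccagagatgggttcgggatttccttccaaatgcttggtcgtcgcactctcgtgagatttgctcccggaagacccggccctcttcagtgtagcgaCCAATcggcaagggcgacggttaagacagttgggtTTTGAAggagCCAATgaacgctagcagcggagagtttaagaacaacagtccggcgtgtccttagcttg
Ccnb1: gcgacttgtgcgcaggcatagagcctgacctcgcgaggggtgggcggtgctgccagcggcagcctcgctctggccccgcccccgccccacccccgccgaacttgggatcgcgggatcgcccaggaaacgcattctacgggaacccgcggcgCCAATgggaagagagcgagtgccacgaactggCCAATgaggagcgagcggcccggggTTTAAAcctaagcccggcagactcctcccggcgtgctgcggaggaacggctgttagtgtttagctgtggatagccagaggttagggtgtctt
Cdc25b: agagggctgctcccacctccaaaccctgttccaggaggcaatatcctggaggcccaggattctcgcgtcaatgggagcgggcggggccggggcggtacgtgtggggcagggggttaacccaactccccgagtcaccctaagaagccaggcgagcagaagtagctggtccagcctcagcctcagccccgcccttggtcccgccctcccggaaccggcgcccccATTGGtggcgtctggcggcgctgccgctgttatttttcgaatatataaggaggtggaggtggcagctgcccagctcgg
Anln: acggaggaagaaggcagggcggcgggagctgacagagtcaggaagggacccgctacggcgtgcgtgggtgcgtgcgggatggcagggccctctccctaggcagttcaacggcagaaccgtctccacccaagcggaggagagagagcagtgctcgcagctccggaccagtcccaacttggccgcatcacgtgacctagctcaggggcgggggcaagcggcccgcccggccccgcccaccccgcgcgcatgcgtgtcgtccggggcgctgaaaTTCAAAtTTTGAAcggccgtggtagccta
The Cdk1 window held 2 CHR and 3 CCAAT matches, and the Cdc20 window 1 and 2. In the Ccnb1 window the variant stood 1 time, with 2 CCAAT matches and no CHR letters. Cdc25b had 1 CCAAT match alone, and Anln 2 CHR matches alone. The median ratio of mouse 4 to the other mice was 3.96 over the 20 members with the CHR letters and 3.82 over the 8 without them. Birc5, Ccnb1 and Cenpe among these 8 held the variant, and the 7 unmatched genes are in neither median. A difference in this ratio by these letters was not tested.

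**Figure D1:**
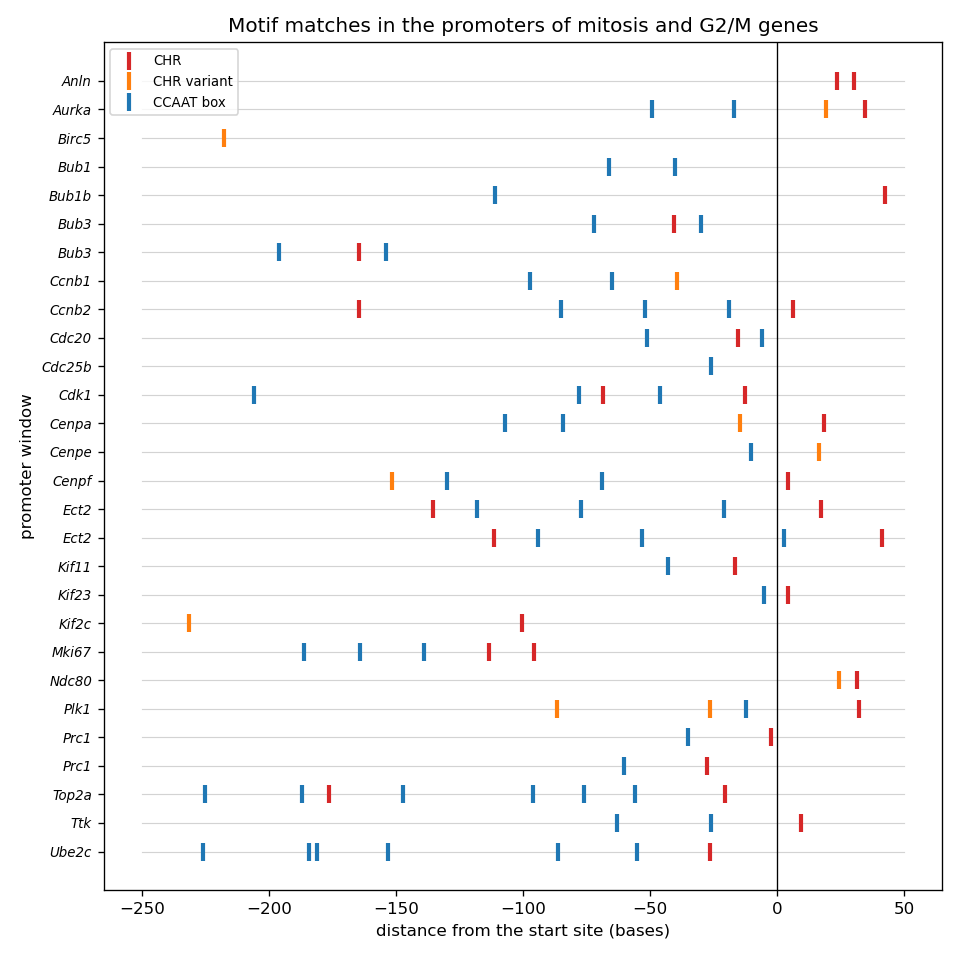
Matches of the CHR letters, the CHR variant and the CCAAT box on either strand, by distance in bases from the start site, in each promoter window with a match (1 line per window). The windows of Mad2l1, Nuf2 and Nusap1 held none of the 3 and are not drawn, and 20 of 28 genes held the CHR letters.

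The mean log2 CPM over the 35 genes was 4.53, 3.99, 5.39 and 7.58 across Eµ-PRMT5 mice 1 to 4, 6.25, 5.49 and 6.23 in double transgenic mice 1 to 3 and 5.54 with TCL1 alone. Eµ-PRMT5 mouse 4 was the highest of the 8 and the other Eµ-PRMT5 mice were the lowest 3, so the double transgenic and Eµ-TCL1 mice lay between them. In bulk RNA, fewer cells of a type and less RNA per cell cannot be told apart. The group means were 5.37 ± 1.58 (SD, n = 4) for Eµ-PRMT5 and 5.99 ± 0.43 (SD, n = 3) for double transgenic mice. Their difference of 0.62 on the log2 scale was smaller than the SD among Eµ-PRMT5 mice. Without mouse 4 the Eµ-PRMT5 mean was 4.64 ± 0.71 (SD, n = 3) and the difference 1.35. The difference was 0.35 without mouse 1 and 0.155 without mouse 2 of the Eµ-PRMT5 group.

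Members varied more among Eµ-PRMT5 mice than the typical gene did. The median SD of log2 CPM over the 4 mice was 1.64 for the members and 0.66 for all genes tested, and without mouse 4 it was 0.78 and 0.58. Among double transgenic mice the corresponding medians were 0.58 and 0.36.

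Mouse 4 of the Eµ-PRMT5 group had the highest level for 32 of the 35 members, against 20.1% of all genes tested. The exceptions were Cdc25b and Ttk, highest in the Eµ-TCL1 mouse, and Anln, highest in double transgenic mouse 1. Eµ-PRMT5 mouse 2 was the lowest for 24 members, against 9.23% of all genes tested, and mouse 1 for 8, against 20.4%. Cenpa and Bub3 were lowest in Eµ-PRMT5 mouse 3, and Cdc25b in double transgenic mouse 2. The median ratio of mouse 4 to the median of the other 7 mice was 4.61 over the members and 0.951 over all genes tested. Members of 1 program share their cells, so they are not replicates of a condition.

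**Figure D2:**
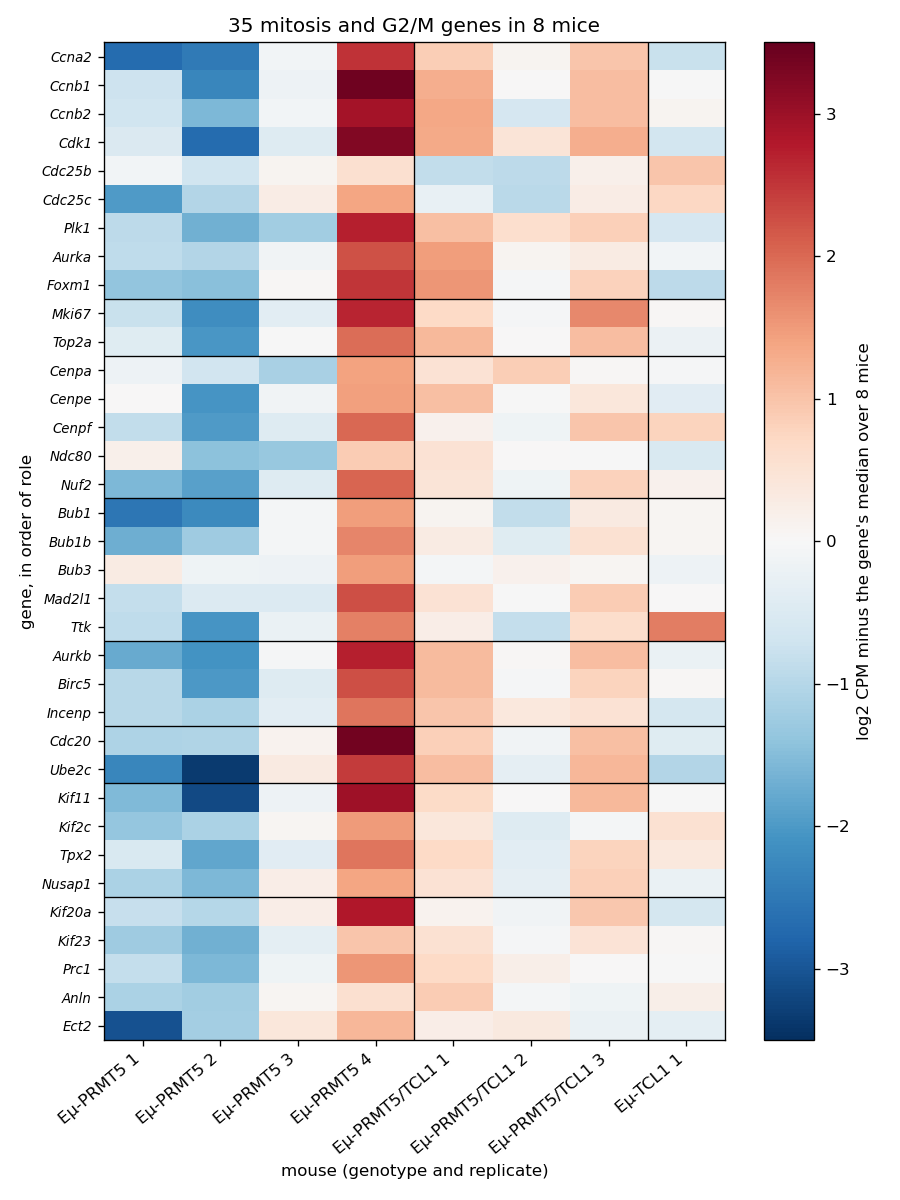
Level of each of the 35 genes in each mouse, as log2 CPM without a prior count relative to the median of that gene over the 8 mice, with genes grouped by role. Eµ-PRMT5 mouse 4 is the highest column for 32 genes, and the exceptions are Cdc25b, Ttk and Anln.

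With all mice, 0 of 13173 genes (0%), members included, passed an adjusted p under 0.05 between double transgenic and Eµ-PRMT5 mice in edgeR's quasi-likelihood test with Benjamini-Hochberg adjustment, while DESeq2 called 3 genes higher and 1 lower. Without adjustment, p was under 0.05 in edgeR for 126 genes with a higher level in double transgenic mice (0.957%) and 160 with a lower one (1.21%), with 0 members in either count, and DESeq2 had 0 among the 30 members for which it gave a p, leaving 5 without one. For 0 members did the double transgenic mice all lie above the 4 Eµ-PRMT5 mice, where 1.35% of genes did, and for 0 did they all lie below, where 1.59% did. The fitted log2 fold change was positive for 14 members and negative for 21 with TMM scaling, but positive for 20 with upper-quartile scaling or library size only. For 30 of the 35 it was smaller than its standard error. Its median over the members was -0.087, while the set mean difference was 0.62. The fit compares group mean levels and the set mean averages log2 values, so a single high mouse weighs more in the fit.

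Leaving out Eµ-PRMT5 mouse 4 moved these counts. This mouse was set apart partly for its high levels of the members, and leaving out the highest mouse of a group raises the fold changes of genes highest in it, so the counts without it, here and for the lists below, are a description and nothing is read from the shares of all genes beside them. Then 22 members were higher in double transgenic mice at an unadjusted p under 0.05 in edgeR, where 2.98% of 13156 genes were, and 0 were lower, where 2.8% were. After Benjamini-Hochberg adjustment over all genes, 0 members and 0% of genes passed, with adjusted p from 0.384 to 0.992 over the members. Double transgenic mice all lay above Eµ-PRMT5 mice 1 to 3 for 18 members, where 5.5% of genes did, and below them for 0, where 5.25% did. The fold change was positive for 34 members, with Cdc25b the exception, and for 43.9% of all genes. With any other mouse of either group left out, 0 members passed an unadjusted p under 0.05.

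**Figure D3:**
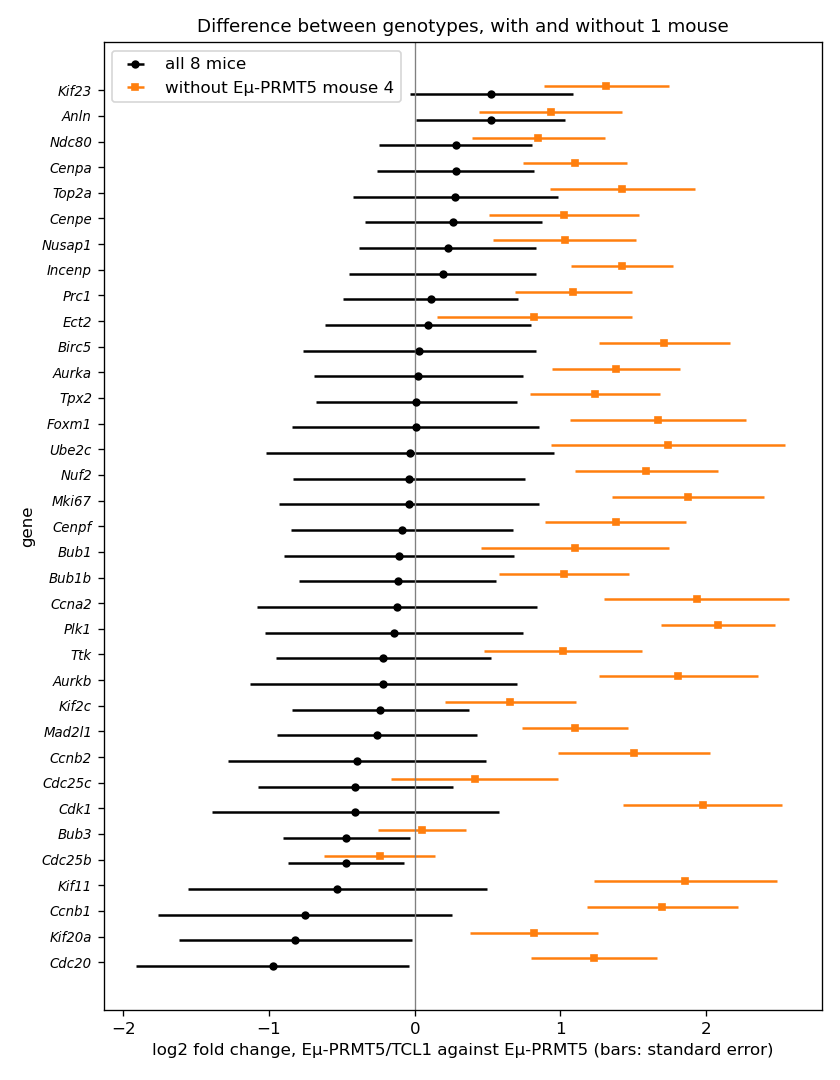
Fitted log2 fold change of each gene in double transgenic against Eµ-PRMT5 mice, with bars of 1 standard error, for all mice and without Eµ-PRMT5 mouse 4. With all mice 14 genes lie above 0 under TMM scaling (20 with upper-quartile scaling or library size only), and without mouse 4 34 do.

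Among genes of mitotic entry, Ccnb1, which encodes cyclin B1, stood at 29.2, 9.82, 42.2 and 508 CPM across Eµ-PRMT5 mice 1 to 4, at 115, 47.9 and 100.5 in double transgenic mice 1 to 3 and at 47.9 with TCL1 alone. Leaving mouse 4 aside, Eµ-PRMT5 mice were below the double transgenic mice. With all mice the fold change between these groups was -0.75 on the log2 scale (standard error 1.01, adjusted p = 1.00 in edgeR with Benjamini-Hochberg adjustment), and it was 1.70 (standard error 0.52, adjusted p = 0.683) without mouse 4. Cdk1, the kinase that cyclin B activates, stood at 22.9, 5.07, 23.9 and 307 CPM across Eµ-PRMT5 mice 1 to 4, at 80.7, 44.04 and 78.8 in double transgenic mice 1 to 3 and at 20.8 with TCL1 alone. The same separation held, and its log2 fold change was -0.41 with all mice and 1.98 (standard error 0.54) without mouse 4.

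Plk1, a kinase of mitotic entry and spindle assembly, was at 15.6, 9.18, 12.5 and 194 CPM across Eµ-PRMT5 mice 1 to 4, at 61.3, 44.2 and 52.6 in double transgenic mice 1 to 3 and at 19.5 with TCL1 alone. It had the smallest p of the members without mouse 4, with a fold change of 2.08 on the log2 scale (standard error 0.39, adjusted p = 0.384 in edgeR with Benjamini-Hochberg adjustment), against -0.14 with all mice. Foxm1, a transcription factor of the G2/M program, was at 4.87, 4.59, 12.99 and 71.4 CPM across Eµ-PRMT5 mice 1 to 4, at 36.7, 12.3 and 22.1 in double transgenic mice 1 to 3 and at 6.76 with TCL1 alone. Eµ-PRMT5 mouse 3 was above double transgenic mouse 2, and the log2 fold change of 0.01 with all mice was the smallest in size among the members, against 1.67 without mouse 4. Aurka, a centrosome kinase, was at 26.6, 24.2, 45.1 and 230.4 CPM across Eµ-PRMT5 mice 1 to 4, at 137, 52.9 and 59.9 in double transgenic mice 1 to 3 and at 46.2 with TCL1 alone. Its log2 fold change was 0.03 with all mice and 1.38 without mouse 4, and Eµ-PRMT5 mice 1 to 3 lay below the double transgenic mice.

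Cdc25b, a phosphatase that activates Cdk1, had another order of mice, at 99.9, 66.02, 114 and 157 CPM across Eµ-PRMT5 mice 1 to 4, at 58.4, 56.6 and 121 in double transgenic mice 1 to 3 and at 209 with TCL1 alone. Double transgenic mice 1 and 2 were the lowest and the Eµ-TCL1 mouse the highest. It had the smallest p of the members with all mice, an unadjusted 0.262 in edgeR, at a log2 fold change of -0.47. Ccna2, Ccnb2 and Cdc25c, 2 cyclins and a phosphatase, reached 246, 321.8 and 68.7 CPM in mouse 4.

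Mki67, the proliferation marker, was at 74.3, 27.9, 98.3 and 806 CPM across Eµ-PRMT5 mice 1 to 4, at 206, 124 and 404 in double transgenic mice 1 to 3 and at 129.5 with TCL1 alone. Top2a, the topoisomerase that untangles sister chromatids, was at 120.2, 38.8, 158 and 617 CPM across Eµ-PRMT5 mice 1 to 4, at 349, 162 and 339 in double transgenic mice 1 to 3 and at 139.5 with TCL1 alone. For both genes the double transgenic mice lay above Eµ-PRMT5 mice 1 to 3 and below mouse 4. The log2 fold change of Mki67 was -0.04 (standard error 0.89) with all mice and 1.87 (standard error 0.52) without mouse 4, and that of Top2a 0.28 and 1.42.

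Of the kinetochore genes, Cenpa, the histone variant of centromeres, was at 107, 75.7, 54.9 and 321 CPM across Eµ-PRMT5 mice 1 to 4, at 169.5, 217 and 123 in double transgenic mice 1 to 3 and at 118 with TCL1 alone. Eµ-PRMT5 mouse 3 was its lowest, and the double transgenic mice lay above Eµ-PRMT5 mice 1 to 3. Cenpe, Cenpf, Ndc80 and Nuf2, which link chromosomes to spindle microtubules, had log2 fold changes between -0.09 (Cenpf) and 0.28 (Ndc80) with all mice, with the sign of Cenpf and Nuf2 turning under upper-quartile scaling or library size only. Without mouse 4 these were between 0.85 (Ndc80) and 1.59 (Nuf2).

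In the spindle assembly checkpoint, Bub1b, which encodes the inhibitor BubR1, was at 30.8, 43.2, 97.6 and 331 CPM across Eµ-PRMT5 mice 1 to 4, at 125, 75.6 and 148 in double transgenic mice 1 to 3 and at 105 with TCL1 alone. Eµ-PRMT5 mouse 3 overlapped with the double transgenic mice. Ttk, the checkpoint kinase Mps1, was at 10.96, 4.91, 17.3 and 69.8 CPM across Eµ-PRMT5 mice 1 to 4, at 24.1, 11.4 and 31.3 in double transgenic mice 1 to 3 and at 71.1 with TCL1 alone. The Eµ-TCL1 mouse was level with Eµ-PRMT5 mouse 4 in this gene. Bub3 lay between 229 and 314 CPM outside mouse 4, where it reached 706. Bub1 and Mad2l1 reached 83.2 and 189 CPM in mouse 4.

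Aurkb, the kinase of the chromosomal passenger complex, was at 16.6, 13.3, 55.6 and 376 CPM across Eµ-PRMT5 mice 1 to 4, at 121, 57.9 and 119.5 in double transgenic mice 1 to 3 and at 48.4 with TCL1 alone. Birc5, which encodes its subunit survivin, was at 34.3, 16.8, 49.2 and 327 CPM across Eµ-PRMT5 mice 1 to 4, at 146, 65.5 and 117 in double transgenic mice 1 to 3 and at 70.3 with TCL1 alone. In both, and in Incenp, the scaffold of the complex, double transgenic mice lay above Eµ-PRMT5 mice 1 to 3. Without mouse 4 the log2 fold changes were 1.81 for Aurkb, 1.71 for Birc5 and 1.42 for Incenp, and with it -0.22, 0.03 and 0.19.

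Cdc20, an activator of the anaphase-promoting complex, was at 28.01, 28.8, 64.1 and 621 CPM across Eµ-PRMT5 mice 1 to 4, at 106, 54.9 and 122 in double transgenic mice 1 to 3 and at 43.8 with TCL1 alone. Eµ-PRMT5 mouse 3 was above double transgenic mouse 2, and mouse 4 above all. The fold change with all mice was the largest in size among members, -0.98 on the log2 scale (standard error 0.94), and without mouse 4 it was 1.23 (standard error 0.44). Ube2c, a ubiquitin-conjugating enzyme of the complex, was at 4.67, 2.22, 28.3 and 122 CPM across Eµ-PRMT5 mice 1 to 4, at 47.7, 18.02 and 50.4 in double transgenic mice 1 to 3 and at 11.1 with TCL1 alone. Here too Eµ-PRMT5 mouse 3 overlapped with the double transgenic mice.

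Kif11, the motor that separates spindle poles, was at 12.6, 4.12, 32.4 and 291 CPM across Eµ-PRMT5 mice 1 to 4, at 58.9, 36.9 and 80.98 in double transgenic mice 1 to 3 and at 36.8 with TCL1 alone. Tpx2, which activates Aurka on the spindle, was at 43.2, 17.7, 46.96 and 227 CPM across Eµ-PRMT5 mice 1 to 4, at 100.3, 47.8 and 106 in double transgenic mice 1 to 3 and at 80.6 with TCL1 alone. In both, Eµ-PRMT5 mouse 3 was close below double transgenic mouse 2. Kif2c and Nusap1, which act on microtubules, reached 111 and 132 CPM in mouse 4.

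Of the central spindle and cytokinesis genes, Prc1, which bundles antiparallel microtubules, was at 40.4, 24.1, 64.97 and 209 CPM across Eµ-PRMT5 mice 1 to 4, at 118, 83.5 and 73.5 in double transgenic mice 1 to 3 and at 70.8 with TCL1 alone. Kif20a, a motor of the central spindle, was at 26.6, 23.3, 54.9 and 328 CPM across Eµ-PRMT5 mice 1 to 4, at 51.3, 42.8 and 90.4 in double transgenic mice 1 to 3 and at 30.8 with TCL1 alone. Double transgenic mice lay above Eµ-PRMT5 mice 1 to 3 for Prc1 and overlapped with mouse 3 for Kif20a, which had a log2 fold change of -0.82 with all mice and 0.82 without mouse 4. Anln, which encodes the contractile ring protein anillin, was at 12.2, 11.2, 27.6 and 38.97 CPM across Eµ-PRMT5 mice 1 to 4, at 48.7, 24.9 and 23.5 in double transgenic mice 1 to 3 and at 30.01 with TCL1 alone, and mouse 4 stood out least in this gene. Kif23, a motor of the central spindle, had the largest positive fold change with all mice, 0.53 on the log2 scale (standard error 0.56), and Ect2, an activator of the contractile ring GTPase, had 0.09.

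As RPKM, the CPM per kilobase of annotated exons, the mean level over the 8 mice was highest for Cdc20 (71.5), Ccnb2 (55.5) and Bub3 (44.9) and lowest for Cenpf (2.63), Anln (2.99) and Foxm1 (3.73). Without Eµ-PRMT5 mouse 4 the same 3 genes were lowest, and the highest were Bub3 (36.9), Cdc20 (34.3) and Ccnb2 (33.4). Exons of Ccna2, Cdc20, Cdc25b, Cdc25c, Kif20a, Nusap1, Plk1, Prc1 and Ube2c share bases with an opposite-strand gene, and those of Foxm1 and Top2a with a gene on the same strand. Whether counting used strand is not given in the sources used here, so reads of such pairs cannot be told apart.

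The single Eµ-TCL1 mouse has no replicate check, so it is described without a test. Its set mean differed by 0.17 from the Eµ-PRMT5 mean on the log2 scale (0.90 without mouse 4) and by -0.45 from the double transgenic mean. The former turned to -0.22 without Eµ-PRMT5 mouse 1, -0.30 without mouse 2 and -0.10 with NA counted as 0, so its sign depends on these choices. It lay above all Eµ-PRMT5 mice, and over 2-fold above their mean on the log2 scale, for Cdc25b and Ttk (16.2% of genes), and below in the same way for 0 members (6.35% of genes). Against double transgenic mice it was higher by this rule for 3 members, Cdc25b, Cdc25c and Ttk (18.7% of genes). It was lower for 7, Ccna2, Cdk1, Plk1, Foxm1, Incenp, Cdc20 and Ube2c (7.54% of genes). The comparisons share mice, so they are not independent.

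Other cell cycle genes were described as lists. Of 84 other mitosis genes tested, 0 were higher (0.957% of all genes) and 0 lower (1.21%) in double transgenic mice at an unadjusted p under 0.05 in edgeR. Their median log2 fold change was 0.01, against -0.09 over all genes tested. Eµ-PRMT5 mouse 4 was the highest for 72 of them, against 20.1% of all genes tested. Without it 36 were higher (2.98% of all genes) and 0 lower (2.8%), with a median of 1.01, against -0.07 over all genes. Hmgb2, a chromatin protein, had the largest mean CPM of this list with all mice, and Tubb4b without mouse 4. Hmgb2 was at 230.3, 148, 163 and 992 CPM across Eµ-PRMT5 mice 1 to 4, at 368, 186 and 319 in double transgenic mice 1 to 3 and at 110.0 with TCL1 alone. Tubb4b, a tubulin, lay between 151 and 576 CPM and was also highest in mouse 4.

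Genes of S phase and replication had a mean log2 CPM of 4.96, 4.87, 5.43 and 7.37 across Eµ-PRMT5 mice 1 to 4, 6.21, 5.63 and 6.41 in double transgenic mice 1 to 3 and 5.16 with TCL1 alone. Mouse 4 was the highest for 44 of the 45 genes, against 20.1% of all genes tested. With all mice 0 were higher (0.957% of all genes) and 0 lower (1.21%) at an unadjusted p under 0.05 in edgeR (median log2 fold change -0.03). Without mouse 4, 23 were higher (2.98% of all genes) and 0 lower (2.8%), with a median of 0.87. Mcm5, a subunit of the replicative helicase, was at 37.7, 112, 196 and 731 CPM across Eµ-PRMT5 mice 1 to 4, at 318, 220.5 and 495 in double transgenic mice 1 to 3 and at 138 with TCL1 alone. Mcm6, another subunit, lay between 258 and 1019 CPM and overlapped between the groups also without mouse 4.

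The lists of regulators held genes highest in mouse 4 and others that were not. Over 19 DREAM and MuvB subunits and E2F partners the mean log2 CPM was 5.40 in mouse 4 and between 4.71 and 5.28 elsewhere. For 10 of them mouse 4 was the highest, against 20.1% of all genes tested. The median SD of log2 CPM over Eµ-PRMT5 mice was 0.72 for this list, against 0.66 for all genes tested. Mybl2, which encodes B-Myb, was at 9.94, 14.1, 13.4 and 113 CPM across Eµ-PRMT5 mice 1 to 4, at 60.3, 35.7 and 45.02 in double transgenic mice 1 to 3 and at 11.6 with TCL1 alone. Mouse 4 was its highest, and the other Eµ-PRMT5 mice lay below the double transgenic mice. Its log2 fold change was 0.31 with all mice (standard error 0.74, adjusted p = 1.00 in edgeR with Benjamini-Hochberg adjustment) and 1.91 (standard error 0.40, adjusted p = 0.467) without mouse 4. E2f8, a repressor of the E2F family, lay between 4.67 and 75.8 CPM and was also highest in mouse 4. Over 16 genes of the anaphase-promoting complex (14 subunits, Cdh1 and the ubiquitin-conjugating enzyme Ube2s) the mean log2 CPM lay between 6.02 and 6.77, highest in mouse 4. That mouse was the highest for 8 of the 16, against 20.1% of all genes tested. In both lists, with all mice, 0 genes were higher (0.957% of all genes) and 0 lower (1.21%) at an unadjusted p under 0.05 in edgeR. Their median log2 fold changes were -0.0038 and -0.14. Without mouse 4, 2 of the DREAM list (Mybl2 and E2f1) and 0 of the other were higher (2.98% of all genes). In both, 0 were then lower (2.8% of all genes). Rbbp4 and E2f4 had the largest mean CPM of the DREAM list, at 471 and 235 CPM in mouse 4, and Anapc5 and Anapc2 of the complex, at 1207 and 209 CPM in that mouse.

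Genes of quiescence and growth arrest had a mean log2 CPM of 6.95, 6.12, 5.58 and 5.70 across Eµ-PRMT5 mice 1 to 4, 6.36, 6.02 and 5.87 in double transgenic mice 1 to 3 and 5.84 with TCL1 alone. Eµ-PRMT5 mouse 1 was the highest and mouse 3 the lowest. Mouse 4 had the highest level for 3 of the 17 tested, near the share of 20.1% of all genes tested. Of these 17, 0 were higher (0.957% of all genes) and 0 lower (1.21%) at an unadjusted p under 0.05 in edgeR with all mice (median log2 fold change -0.22). Without mouse 4, 1 was higher (2.98% of all genes) and 1 lower (2.8%), with a median of -0.44. Btg1, an antiproliferative gene, was at 1024, 536, 194 and 90.5 CPM across Eµ-PRMT5 mice 1 to 4, at 343, 279.7 and 259 in double transgenic mice 1 to 3 and at 293 with TCL1 alone, with mouse 4 the lowest. Klf6, a transcription factor, was at 1064 CPM in Eµ-PRMT5 mouse 1 and 311 CPM in mouse 4.

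**Figure D4:**
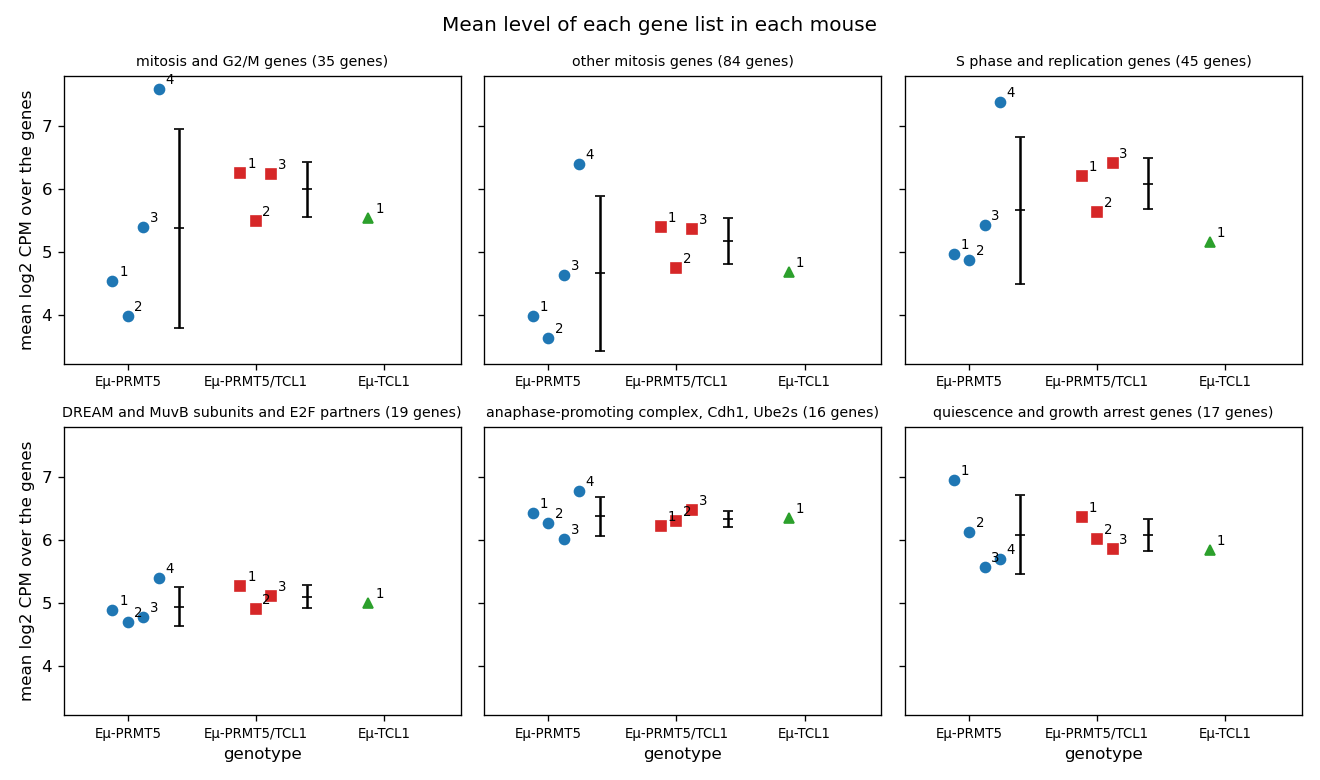
Mean log2 CPM over each gene list in each mouse, by genotype, with the group mean ± SD for the 4 Eµ-PRMT5 and 3 double transgenic mice. Eµ-PRMT5 mouse 4 is at 7.58 for the mitosis genes and 7.37 for the S phase genes, above every other mouse.

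Markers of other cell types also differed among the mice. Of 15 erythroblast markers 13 had a value in some library, and their sum stood at 129, 54.9, 126 and 667 CPM across Eµ-PRMT5 mice 1 to 4, at 431, 152 and 151 in double transgenic mice 1 to 3 and at 129 with TCL1 alone. Hba-a1 was the most abundant by mean (highest in 4 of 8 mice), and Eµ-PRMT5 mouse 4 was the highest for 9, against 20.1% of all genes tested. Klf1, a defining factor of erythroblasts, was at 0 CPM in Eµ-PRMT5 mouse 1 and 32.9 CPM in mouse 4, and Epor, Alas2 and Tfr2 had no value in some libraries.

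Each leading marker is named by its mean over the 8 mice. The 10 granulocyte precursor and neutrophil markers, led by Ngp (highest in 6 of 8 mice), stood in sum at 2682, 2103, 428 and 5400.4 CPM across Eµ-PRMT5 mice 1 to 4, at 9251, 5166 and 661 in double transgenic mice 1 to 3 and at 598 with TCL1 alone. The 10 macrophage and monocyte markers, led by Lyz2 in each mouse, stood in sum at 1203, 1154, 1401 and 4048 CPM across Eµ-PRMT5 mice 1 to 4, at 7841, 2894 and 1041 in double transgenic mice 1 to 3 and at 1087 with TCL1 alone. Itgam was at 0 in Eµ-PRMT5 mouse 3. C1qa had no value in Eµ-PRMT5 mice 1 and 2, and C1qb and C1qc had none in mouse 1. By these sums Eµ-PRMT5 mouse 4 and double transgenic mouse 1 were high in erythroid and myeloid markers, and they were also high in mitosis genes. Lyz2 made up most of the macrophage and monocyte sum, at 2865 and 6224 CPM in these 2 mice, while Adgre1 was highest in Eµ-PRMT5 mouse 2. Eµ-PRMT5 mouse 4 was the highest for 3 of the 10 markers in each myeloid list, against 20.1% of all genes tested. Double transgenic mouse 3, with a mitosis set mean of 6.23 against 6.25 in mouse 1, had 661 CPM of granulocyte markers, 151 CPM of erythroblast markers and the highest B cell marker level. Double transgenic mouse 2, with the lowest mitosis set mean of its group at 5.49, had 5166 CPM of granulocyte and 2894 CPM of macrophage and monocyte markers.

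The 8 T cell markers, led by Cd2 (highest in 5 of 8 mice), summed to between 441 and 1241 CPM, lowest in Eµ-PRMT5 mouse 4. Cd2 and Lck made up most of this sum, and other markers had another order of mice. Cd3d, Cd3e, Cd8a and Cd8b1 were highest in Eµ-PRMT5 mouse 3, and Cd3g was highest in Eµ-PRMT5 mouse 4. Cd4 and Cd8a had no value in 1 library each. The 6 NK cell markers, led by Nkg7 (highest in 5 of 8 mice), summed to 376 CPM in Eµ-PRMT5 mouse 3 and to between 24.4 and 71.3 CPM elsewhere. The 7 germinal centre markers, led by Bcl6 (highest in 6 of 8 mice), summed to between 45.02 and 140.3 CPM. Of 8 plasma cell and plasmablast markers, 7 had values and, led by Jchain (highest in 3 of 8 mice), stood in sum at 6053, 2679.5, 2102 and 1239.7 CPM across Eµ-PRMT5 mice 1 to 4, at 885, 781 and 3486 in double transgenic mice 1 to 3 and at 2541 with TCL1 alone. At an unadjusted p under 0.05 in edgeR with all mice, 2 of 6 T cell, 1 of 3 NK cell, 1 of 4 germinal centre and 2 of 7 plasma cell markers tested were lower in double transgenic mice (1.21% of all genes), and 1 of 7 macrophage and 1 of 10 granulocyte markers were higher (0.957% of all genes). The part of these cell types in the levels of the mitosis genes was not tested.

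**Figure D5:**
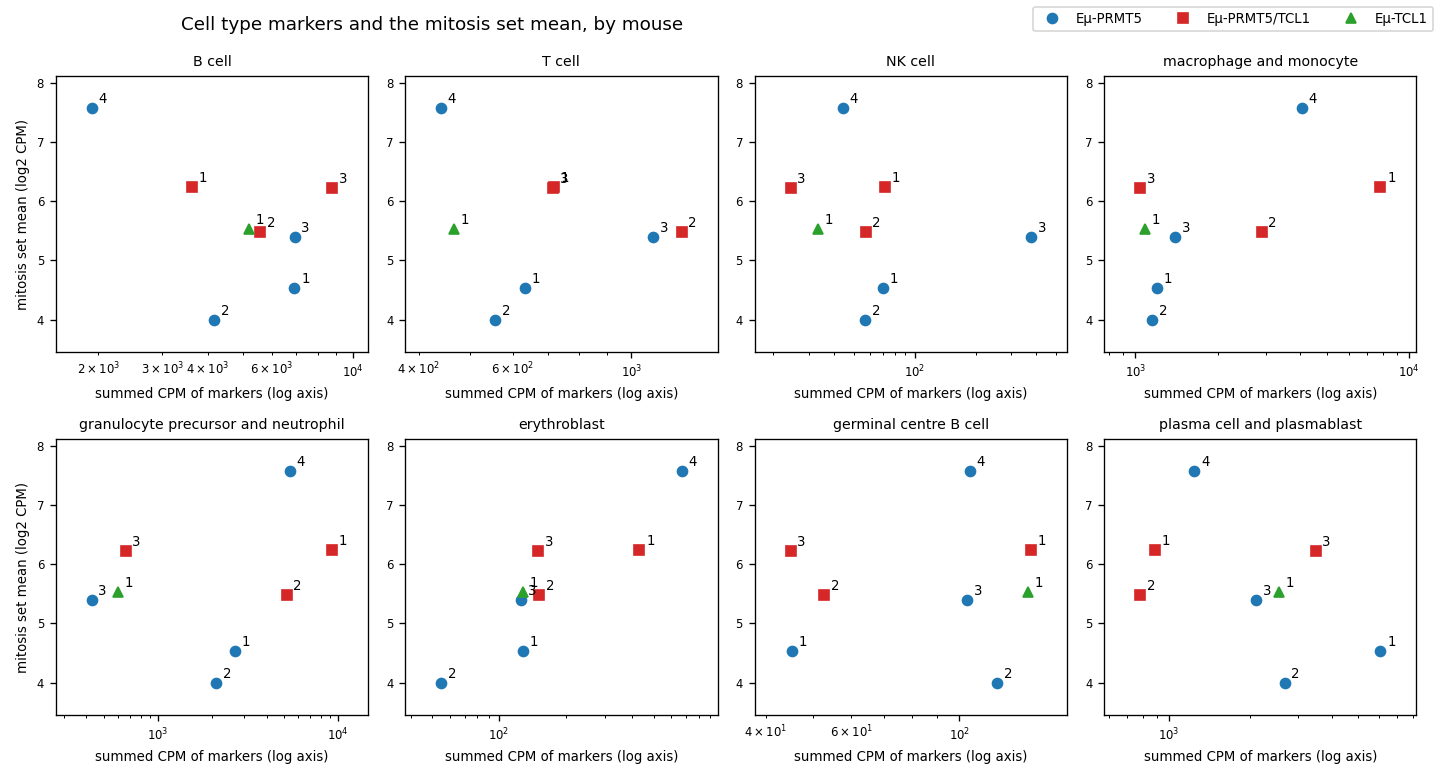
Summed CPM of the markers of each cell type (log axis) and the mean log2 CPM of the 35 mitosis genes in each mouse, with points numbered by replicate. Eµ-PRMT5 mouse 4, at 7.58, has the lowest B cell and the highest erythroblast marker level, while double transgenic mouse 3, at 6.23, has the highest B cell marker level.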

How the data were processed

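RNA-seq was done on splenic B cells of 8 mice, and the authors deposited a matrix of raw counts with 1 column per mouse. The study's methods describe low-input libraries of preamplified cDNA, handled by the CLEAR workflow, from these genotypes, while the labels describe TRIzol extraction and a stranded mRNA kit. The submitters' processing notes name GRCm38, Subread, featureCounts and DESeq2 1.20.0, the version in the low-input methods, which also describe diseased mice, so labels and methods differ on how these libraries were made. For the stranded kit the methods name STAR and an Ensembl annotation; for the low-input libraries aligner and annotation, and for both the use of strand, are not given in the sources used here.

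Of 24902 symbols, 10830 had NA in at least 1 library. What NA means is not stated, and the 14072 complete symbols were used. Counts were scaled by TMM, filtered on low counts by group (13173 genes) and tested in 1 model over the 3 groups with edgeR 4.0.16 in R 4.3.3 (quasi-likelihood test, Benjamini-Hochberg adjustment, biological coefficient of variation 0.483), with code tested on simulated data. Set means are of log2 CPM with a prior count of 2. Exon lengths and overlaps are from the GENCODE annotation of GRCm38. Figures were drawn with Python 3.11.15 and matplotlib 3.10.9. Values in every mouse are given for 14 listed members and the 3 of largest and 3 of smallest fold change, and other members singled out, and Mybl2, E2f1 and E2f8, were chosen after their values were seen. Single values of 2 marker genes are not reported here. Alternatives were DESeq2 1.42.0, upper-quartile scaling, scaling by library size only, no filter or at least 10 counts, prior counts of 0.5 and 5, the median over members, NA as 0, only the 2 groups compared, a replicate block and each mouse left out. Mice were separate animals, so the tests set each difference against the spread between animals. The members and lists were chosen with earlier results of these data known.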

Additional observations from a re-analysis of the deposited data

Results flagged for a closer look

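Among the 4 Eµ-PRMT5 mice, 18 of the 35 members had a CPM in mouse 4 whose gap to the next mouse took up more of the whole range than Dixon's limit for 4 samples. Of all 13173 genes tested, 3.31% did so with mouse 4 the highest. For normally distributed values chance gives about 1 in 20 groups, or 1.75 of 35 members, with any mouse at either end, where 11% of all genes passed. The CPM values were 246 for Ccna2, 508 for Ccnb1, 321.8 for Ccnb2, 307 for Cdk1, 194 for Plk1, 230.4 for Aurka, 71.4 for Foxm1, 806 for Mki67, 117 for Cenpf, 112 for Nuf2, 189 for Mad2l1, 376 for Aurkb, 327 for Birc5, 206 for Incenp, 621 for Cdc20, 291 for Kif11, 227 for Tpx2 and 328 for Kif20a. These genes vary together, so they are not separate observations. On the log2 scale 1 member passed the limit, and 0.994% of all genes with mouse 4 the highest.

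Of 22 list means and marker sums, 3 passed it: the macrophage and monocyte markers (4048 CPM) and the erythroblast markers (667 CPM) in Eµ-PRMT5 mouse 4, and the NK cell markers (376 CPM) in Eµ-PRMT5 mouse 3. Chance gives about 1 in 20, or 1.1 of 22. The list means are on the log2 scale and the marker sums in CPM. With these sums also on the log2 scale, tried after seeing the data, the macrophage and monocyte markers and the germinal centre markers (lowest in Eµ-PRMT5 mouse 1, 45.3 CPM) passed, and the erythroblast and NK cell markers did not. The part of these cells in the mitosis gene levels was not tested.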

How the results depend on the processing

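At an adjusted p under 0.05 DESeq2 called 3 genes higher and 1 lower, and edgeR 0 in each setting tried (with all mice, an unadjusted p under 0.05 was reached by 126 higher and 160 lower genes). DESeq2 gave no p for 5 members, Ccnb1, Cdk1, Plk1, Aurka and Cdc20. Members higher at an unadjusted p under 0.05 numbered 0 to 22 with 1 mouse left out (22 without Eµ-PRMT5 mouse 4), 22 with mice 1 to 3 of both groups and 29 with these mice and the replicate block, and 0 in the other settings. In no setting were members lower (0 in each). Of all genes, 392 were higher and 368 lower of 13156 without Eµ-PRMT5 mouse 4. With mice 1 to 3 of both groups, 374 were higher and 368 lower of 12550, and with the block 495 and 331 of 12550. The set mean difference of double transgenic minus Eµ-PRMT5 mice lay between 0.155 and 1.35 with 1 mouse left out and between 0.60 and 0.69 otherwise. That of Eµ-TCL1 minus Eµ-PRMT5 was -0.10 with NA as 0 and between -0.30 and 0.90 with 1 mouse left out, and that of Eµ-TCL1 minus double transgenic between -0.74 and -0.23. These moves were smaller than the pooled SD of 1.26, which includes Eµ-PRMT5 mouse 4, but without this mouse the SD was 0.71 among Eµ-PRMT5 and 0.43 among double transgenic mice, and its removal moved the difference of these groups by more than either. With marker sums on the log2 scale, chosen after seeing the data, 2 list means and marker sums in place of 3 passed Dixon's limit. Mouse 4 was the highest for 32 members also with library size only. Depth limits low levels such as Ube2c in Eµ-PRMT5 mouse 2, at 14 counts.

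Deviations of same-numbered mice correlated at -0.0206, 0.154 and 0.16, so the numbers were not taken to pair the mice; 2 of 3 Eµ-PRMT5 and 3 of 3 double transgenic mice were nearest to their own number, a hint from the data. The replicate block moved genes at an unadjusted p under 0.05 from 374 to 495 higher and from 368 to 331 lower.

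Log2 fold changes that turned their sign had these values, and 0 members passed an adjusted p under 0.05. With the replicate block they were 2.36 for Ccna2, 1.83 for Ccnb1, 1.40 for Ccnb2, 2.18 for Cdk1, 0.58 for Cdc25c, 2.10 for Plk1, 1.89 for Mki67, 1.42 for Cenpf, 1.66 for Nuf2, 1.42 for Bub1, 1.13 for Bub1b, 0.06036 for Bub3, 1.06 for Mad2l1, 1.06 for Ttk, 2.02 for Aurkb, 1.25 for Cdc20, 2.36 for Ube2c, 2.20 for Kif11, 0.74 for Kif2c and 0.84 for Kif20a. With the same 6 mice and no block they were 1.93 for Ccna2, 1.70 for Ccnb1, 1.5 for Ccnb2, 1.97 for Cdk1, 0.40 for Cdc25c, 2.08 for Plk1, 1.87 for Mki67, 1.37 for Cenpf, 1.58 for Nuf2, 1.09 for Bub1, 1.02 for Bub1b, 0.04754 for Bub3, 1.09 for Mad2l1, 1.01 for Ttk, 1.80 for Aurkb, 1.23 for Cdc20, 1.73 for Ube2c, 1.85 for Kif11, 0.65 for Kif2c and 0.81 for Kif20a. With upper-quartile scaling they were 0.01031 for Ccna2, 0.01341 for Plk1, 0.11 for Mki67, 0.04437 for Cenpf, 0.08963 for Nuf2 and 0.08673 for Ube2c. With library size only they were 0.01687 for Ccna2, 0.02631 for Plk1, 0.11 for Mki67, 0.04137 for Cenpf, 0.08996 for Nuf2 and 0.08876 for Ube2c. With at least 10 counts in every library they were 0.01835 for Mki67, 0.01825 for Nuf2 and 0.02466 for Ube2c. With DESeq2 they were -0.002312 for Aurka, -0.01962 for Foxm1 and -0.01317 for Tpx2. With NA as 0 they were -0.04021 for Aurka, -0.05989 for Foxm1, -0.03589 for Birc5 and -0.03697 for Tpx2. The first 2 settings lack mouse 4, and for the others the cause was not tested. With 1 mouse left out the range was -0.51 to 1.94 for Ccna2, -1.14 to 1.70 for Ccnb1, -0.76 to 1.503 for Ccnb2, -0.80 to 1.98 for Cdk1, -0.74 to 0.41 for Cdc25c, -0.50 to 2.08 for Plk1, -0.54 to 1.38 for Aurka, -0.46 to 1.67 for Foxm1, -0.61 to 1.88 for Mki67, -0.07436 to 1.43 for Top2a, -0.07703 to 1.02 for Cenpe, -0.48 to 1.38 for Cenpf, -0.38 to 1.59 for Nuf2, -0.45 to 1.10 for Bub1, -0.44 to 1.02 for Bub1b, -0.64 to 0.05028 for Bub3, -0.55 to 1.10 for Mad2l1, -0.56 to 1.02 for Ttk, -0.59 to 1.81 for Aurkb, -0.32 to 1.71 for Birc5, -0.0944 to 1.42 for Incenp, -1.34 to 1.23 for Cdc20, -0.43 to 1.74 for Ube2c, -0.93 to 1.86 for Kif11, -0.52 to 0.65 for Kif2c, -0.32 to 1.24 for Tpx2, -0.07888 to 1.03 for Nusap1, -1.21 to 0.82 for Kif20a, -0.20 to 1.09 for Prc1 and -0.27 to 0.82 for Ect2.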
